A study of Drosophila melanogaster with 20 samples.

Results

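N6-methyladenosine (m6A) peaks were examined on genes that make no known protein, the long noncoding RNAs (lncRNA) and antisense RNAs (asRNA) of Drosophila melanogaster. A peak is a stretch of transcript with more reads after immunoprecipitation with an m6A antibody (IP) than in the matched untreated RNA (input). A peak was taken as a member when the gene assigned to it in the deposited peak list had a name starting with lncRNA: or asRNA: in the deposited expression table. By this rule 4794 of 98715 peaks in the 5 peak lists were members. They lay on 1324 of the 2378 lncRNA and asRNA genes of the expression table, 1119 lncRNA genes and 205 asRNA genes, among 17276 genes in all.

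The study sequenced 10 IP and 10 input libraries of poly(A) RNA from whole adult flies 1 to 2 days old, raised at 25 °C, with 2 of each kind per group. The groups were yw females, yw males, which like them carry intact m6A genes, and mutant males of the genotypes Mettl3SK2/Df, Mettl14SK1 and Hakai4. Mettl3SK2/Df flies carry 1 mutant allele over a deficiency, and Hakai4 corresponds to the frameshift allele that the study calls HakaiSH4. Mutant females were not sequenced, so the mutants were compared with yw males only. Each mutated gene was represented by 1 genotype set against yw. Effects of the mutation and of strain background therefore cannot be told apart in any mutant difference below. The mutants are called Mettl3, Mettl14 and Hakai males here.

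In flies, m6A is written in the nucleus by a complex in which Mettl3 is the catalytic methyltransferase and Mettl14 its RNA-binding partner. Further proteins, among them Hakai, fl(2)d, vir, nito and Flacc, hold the complex together or bring it to its targets. A lncRNA is a long transcript with no sizeable reading frame, and an asRNA runs across another gene on the opposite strand. The best known fly lncRNAs are roX1 and roX2, which coat the male X chromosome together with the MSL proteins and help to raise its transcription. Others are made at the bithorax complex (bxd, iab4, iab8), at heat shock loci (Hsromega) or as precursors of small RNAs (flam, let7C). Many fly lncRNAs are known mainly from testis.

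Whole-series facts that bear on these peaks were as follows. Each peak list was made once per group from its replicates together, so a peak has no replicate error. Intervals on shares of peaks (95%, Wilson) cover counting error only and take each listed peak as separate, though some overlap each other. RNA levels are given in FPKM (fragments scaled to transcript length and library size) for the 10 input libraries, and since no counts were used, the depth behind them is unknown. The log2 FPKM values of replicate libraries correlated at 0.978 to 0.996 across genes, and no replicate pair was identical. Each mutated gene was lower in its own mutant. Mettl3 stood at 5.22 and 5.17 FPKM in the 2 yw male libraries and at 2.43 and 2.10 in Mettl3 males. Mettl14 stood at 4.19 and 4.25 FPKM in yw males and at 1.77 and 2.02 in Mettl14 males. Hakai stood at 2.47 and 3.36 FPKM in yw males and at 0.767 and 1.21 in Hakai males. These falls, of -0.93, -0.85 and -0.97 on the log2(FPKM + 1) scale, had limma adjusted p-values of 0.0027, 0.0040 and 0.020, and were short of the log2 change of 1 used below for a call. Summed markers of testis (bam, Mst87F, betaTub85D, aly, can and dj) were 4.47 and 4.65 FPKM in yw females and 799 to 1152 in the 8 male libraries. Because whole flies were used, fewer cells of a type and less RNA per cell cannot be told apart in any RNA level below.

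The number of member peaks differed most between the sexes. The yw female list held 532 member peaks on 366 genes, or 2.59% (2.38 to 2.82%) of its 20540 peaks. The yw male list held 1016 on 804 genes, or 5.04% (4.75 to 5.35%) of 20153. The mutants were close to yw males, with 1095 peaks on 865 genes in Mettl3 males (5.20%), 1098 on 864 genes in Mettl14 males (6.0%) and 1053 on 824 genes in Hakai males (5.64%). Most genes carried a single peak, 653 of 804 in yw males, and the largest number on 1 gene in that list was 13. Some peaks of a list overlapped each other by more than 50% of the smaller. These were 206 of 532 member peaks in yw females (38.7%, all peaks 16.3%) and 229 of 1016 in yw males (22.5%, all peaks 17.8%). Counted once, overlapping peaks left 435 member places in yw females and 926 in yw males. For the Mettl3, Mettl14 and Hakai mutants these were 994, 1015 and 972. Counts take every listed peak unless stated. Of the 1324 genes, 460 had a peak in all 4 male lists and 141 in all 5 lists. Between the yw sexes, 252 genes had a peak in both, 552 in males and not in females, and 114 in females and not in males.

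Member peaks were short and sat on transcripts of short genomic span. Their median exonic length was 208 bases in yw males and 232.5 to 237 in the other lists, against 240 to 269 for the other peaks. The exonic length of a median member peak was 21.1 to 26.1% of the genomic span of its transcript, compared with 5.01 to 5.84% for other peaks. The span includes introns, so these are not shares of the spliced RNA. Between 78.9 and 88.1% of member peaks were a single block with no intron inside, as were 73.5 to 81.1% of other peaks.

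The peak caller's annotation, which names the part of a transcript under each peak, placed most member peaks on plain exons, since a noncoding gene has no UTR of its own. The share labelled exon was 74.1% in yw females, 84.8% in yw males and 84.4%, 88.1% and 87.5% in the Mettl3, Mettl14 and Hakai mutants. The other member peaks carried a UTR label, and in all 5 lists each of them (138 in yw females and 154 in yw males, for example) lay over a gene outside the lncRNA and asRNA class. Such labels were commonest in yw females, where 12.03% of member peaks were labelled 5′ UTR and 13.9% 3′ UTR. Of the peaks labelled exon, 11.4 to 16.8% lay over such a gene.

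Along the genomic span of the transcript, member peaks leaned less to the 3′ end than peaks on other genes. The span of each transcript, introns included, was split into 4 equal sections, counted from the 5′ end. The sections are therefore not equal parts of the spliced RNA, and peaks outside the span were put in the nearest end section. The last section held 36.7% of yw male member peaks and the first 24.0%. Among other yw male peaks the last section held 57.7% and the first 21.1%. In yw females the order was turned, with 38.0% of member peaks in the first section and 27.1% in the last. In the mutants the last section held 35.3 to 37.9% of member peaks, and the first 20.6 to 24.5%.

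Many member peaks, like many peaks in general, shared their place with another gene. Over another annotated gene, on either strand, lay 221 of 532 member peaks in yw females (41.5%), 280 of 1016 in yw males (27.6%), 341 of 1095 in Mettl3 males (31.1%), 287 of 1098 in Mettl14 males (26.1%) and 269 of 1053 in Hakai males (25.5%). Of all peaks in these lists 25.8, 29.6, 29.2, 29.3 and 29.8% did, in the same order. The member share was thus the higher one only in yw females and Mettl3 males. For asRNA genes such overlap was the rule: 120 of 167 asRNA peaks in yw males lay over a gene on the opposite strand. The libraries were strand-specific, but how strand was used in peak calling is not given in the sources used here, so a peak over overlapping genes cannot be assigned to 1 of them with certainty. In addition, 15 to 25 member peaks per list had no block inside the transcript they were assigned to. The largest female example was CR46271, whose peaks at 2R:18539974-18544156 in yw females (27.3-fold) and 2R:18539974-18544276 in yw males (16.6-fold) lay in Rgk2 exons on either side of the lncRNA. All coordinates are those of the deposited files, whose lncRNA and asRNA gene positions equal those of assembly release 6 for 2331 of the 2347 genes matched by symbol.

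Fold enrichment is the ratio of IP to input within a peak, as the peak caller gave it. On member peaks its median was 3.82 (95% rank interval 3.61 to 4.30) in yw females, 3.86 (3.59 to 4.12) in yw males, 3.33 (3.19 to 3.49) in Mettl3 males, 3.69 (3.51 to 3.88) in Mettl14 males and 4.13 (3.93 to 4.40) in Hakai males. Other peaks had medians of 2.47, 3.03, 2.49, 2.75 and 2.84 in the same order. A fold of at least 5 was reached by 209 member peaks in yw females (39.3%, against 20.6% of all peaks in that list), 394 in yw males (38.8% against 24.4%), 289 in Mettl3 males (26.4% against 13.7%), 349 in Mettl14 males (31.8% against 18.7%) and 417 in Hakai males (39.6% against 21.6%). Mettl3 males had the lowest and Hakai males the highest median, both among member peaks of the mutants and among their other peaks.

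**Figure D1:**
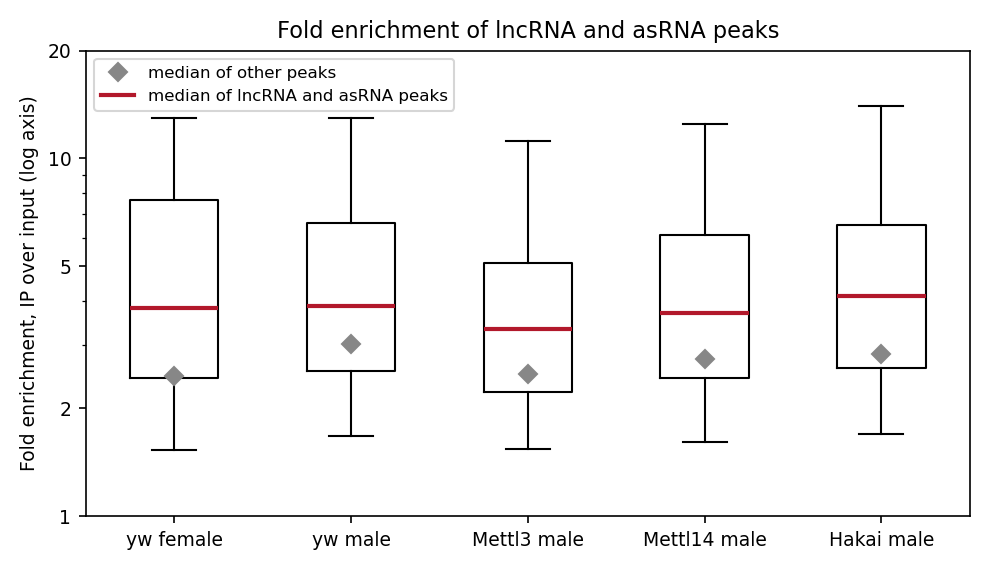
Fold enrichment of IP over input (log axis) of the lncRNA and asRNA peaks in the 5 lists, as boxes with whiskers. The median of these peaks and the median of the other peaks of the same list are marked. Peaks beyond the whiskers, the highest folds among them, are not drawn. The member medians, 3.33 to 4.13, lie above those of the other peaks, 2.47 to 3.03, in each list.

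Fewer member peaks than peaks in general were firmly called. Only 68.8% of member peaks in yw females, 74.1% in yw males and 80.0%, 76.9% and 76.9% in the Mettl3, Mettl14 and Hakai mutants had a false discovery rate (FDR, the peak caller's adjusted p) of at most 0.01, against 86.3, 89.2, 89.3, 89.8 and 89.6% of all peaks. Member peaks with a fold of at least 5 were on genes with a median of 0.640 FPKM in yw males, compared with 1.51 FPKM under a fold of 5. In yw males 37 member peaks had exactly the same fold, 7.11. Of the yw male member peaks, 464 (45.7%) were on genes below 1 FPKM, as were 356 (66.9%) of the yw female ones.

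Several of the highest folds were also on genes of very low RNA level. In yw males the highest were on CR45332 (41.4-fold, 2L:17901807-17902691), CR44916 (39.1-fold), CR46322 (36.7-fold), CR45669 (34.3-fold) and CR46348 (32.0-fold). Of these, CR44916 (1.81 and 1.57 FPKM) and CR46322 (1.38 and 2.97 FPKM) were above 1 FPKM in yw males. CR45332 was at 0.166 FPKM or less in all 10 libraries and still had a peak in all 5 lists, with folds of 10.9 in yw females, 11.7, 9.97 and 26.1 in the Mettl3, Mettl14 and Hakai mutants. Only 16% of the exonic bases of the CR46322 peak lay in its own transcript, and the rest ran over neighbouring genes including Hr3. In yw females the highest were on CR45308 and CR46148 (both 36.7-fold), CR45666 (30.7-fold), CR46348 (27.8-fold) and CR46271. CR46148, which lies across the homeobox gene Gsc on the other strand, had a peak in every list, at 14.2 in yw males and 7.0, 8.47 and 11.1 in the Mettl3, Mettl14 and Hakai mutants.

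The first question the design puts to these peaks is which of them need the m6A writers. A yw male peak was called lost in a mutant when no peak of the mutant list overlapped more than 50% of the smaller of the 2, and gained was used for a mutant peak that no yw male peak overlapped in this way. The 3 mutants are compared with 1 and the same yw male list, so their values are not independent of each other.

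Between 29.4 and 31.8% of member peaks were lost in each mutant. In Mettl3 males 299 of 1016 were lost (29.4%, 26.7 to 32.3%), where 23.3% of all yw male peaks were. In Mettl14 males 323 were lost (31.8%, 29.0 to 34.7%), with 28.6% of all peaks. In Hakai males 311 were lost (30.6%, 27.9 to 33.5%), with 24.9% of all peaks. In each case the member share was above that of all peaks of the list. Lost in all 3 mutants were 168 member peaks (16.5%, all peaks 14.3%), and 563 were found in all 3 (55.4%, all peaks 63.1%). Of those missing from a single mutant list, 42 were missing from Mettl3, 49 from Mettl14 and 50 from Hakai.

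Gains were as frequent. Mettl3 males had 353 gained member peaks of 1095 (32.2%, 29.5 to 35.1%), where 25.3% of all its peaks were gained. Mettl14 males had 395 of 1098 (36.0%, 33.2 to 38.9%), against 21.4% of all. Hakai males had 345 of 1053 (32.8%, 30.0 to 35.7%), against 17.6% of all. No test of the difference between member and other peaks was possible with 1 list per group.

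**Figure D2:**
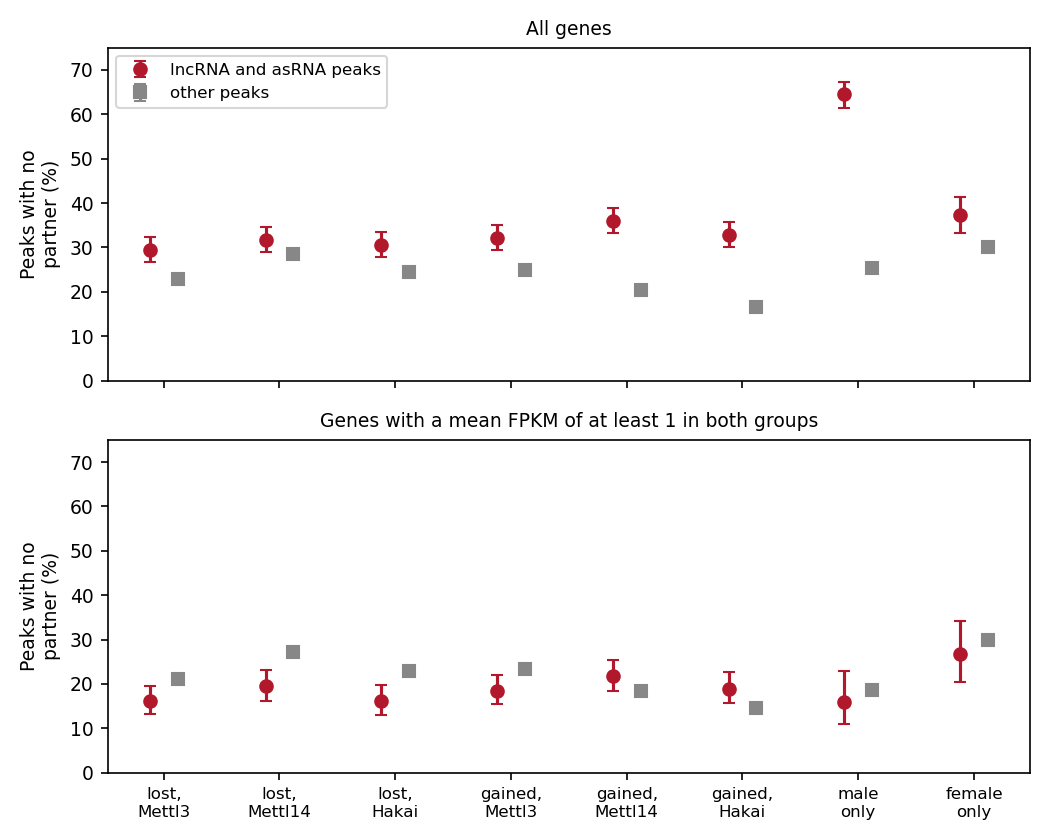
Share of peaks with no partner in the compared list (percent, points with 95% Wilson intervals) for lncRNA and asRNA peaks and for other peaks, by mutant and direction and for the yw sexes, over all genes (top) and over genes of at least 1 FPKM in both groups (bottom). Over all genes members lie above other peaks throughout, by most among yw male peaks with no female partner (64.5% against 25.3%) and next among gained peaks of Hakai males (32.8% against 16.7%).

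Lost and found peaks lay on genes of different RNA level. Peaks lost in all 3 mutants were on genes with a median of 0.404 FPKM in yw males, and 73.2% of them were on genes below 1 FPKM. Peaks found in all 3 were on genes with a median of 1.77 FPKM, and 33.9% were below 1 FPKM. An FDR of at most 0.01 in yw males was reached by 39.9% of the first and 91.7% of the second. Within the member peaks at that FDR, 19.1% were lost in Mettl3 males, 21.8% in Mettl14 males and 19.9% in Hakai males, close to the 18.3, 24.4 and 19.8% of other peaks at that FDR. Of member peaks above it, 58.9, 60.5 and 61.2% were lost.

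When only genes with a mean of at least 1 FPKM in both groups were kept, a choice made after seeing the data, the order against other peaks turned. Lost were then 82 of 509 member peaks in Mettl3 males (16.1%, 13.2 to 19.6%) against 21.1% of other peaks, 97 of 499 in Mettl14 males (19.4%, 16.2 to 23.1%) against 27.1%, and 75 of 465 in Hakai males (16.1%, 13.1 to 19.8%) against 23.0%. Gained shares fell to 18.5% in Mettl3 males (other peaks 23.5%), 21.7% in Mettl14 males (18.4%) and 19.0% in Hakai males (14.6%). The higher loss among member peaks as a whole was thus not seen among genes above this level, and the direction for gains depended on the mutant.

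Position along the genomic span of the transcript gave a weaker gradient than on other genes. In Mettl3 males 33.2, 39.6, 22.0 and 27.6% of member peaks were lost from the first to the last section of the transcript. In Mettl14 males the shares were 40.2, 37.7, 21.6 and 30.6%, and in Hakai males 33.2, 35.1, 26.5 and 29.8%. Other peaks were lost from the first section in 49.3, 58.9 and 42.9% of cases and from the last in 12.1, 16.2 and 16.3%. The member share lost was below that of other peaks in the first section and above it in the last, in all 3 mutants; neither difference could be tested.

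**Figure D3:**
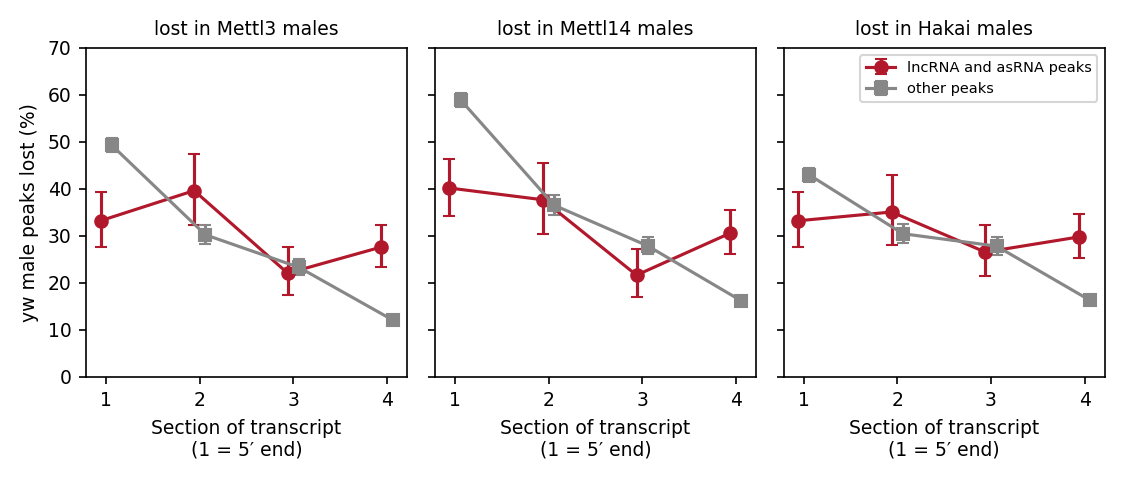
Share of yw male peaks lost (percent, 95% Wilson intervals) in each mutant by section of the genomic span of the transcript, introns included, for lncRNA and asRNA peaks and for other peaks. Other peaks fall from 49.3 to 12.1% in Mettl3 males, and member peaks from 33.2 to 27.6%.

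Peaks on asRNA genes were kept more often than those on lncRNA genes. Of 167 yw male asRNA peaks, 17.4% were lost in Mettl3 males, 21.6% in Mettl14 males and 18.6% in Hakai males, compared with 31.8, 33.8 and 33.0% of 849 lncRNA peaks. Overlap with another gene gave a like split. Of 280 member peaks over another gene, 18.2, 22.1 and 17.9% were lost, and of 736 over no other gene, 33.7, 35.5 and 35.5%. The part of the overlapping genes in this difference was not tested.

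Among the member peaks found in a mutant, enrichment changed little. The median log2 ratio of the fold in the mutant to that in yw males was -0.09 in Mettl3 males (717 peaks), 0.01 in Mettl14 males (693) and 0.04 in Hakai males (705). Other peaks gave -0.08, 0.02 and -0.02. The lists were not calibrated against each other, so a change shared by all peaks of a list would not appear in these ratios.

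Of the 32 lncRNA and asRNA genes with a given name rather than a number, 23 had a peak in at least 1 list. On roX1 (X:3857230-3862697) all 4 male lists had a peak in the third section of the transcript, at X:3858783-3859230 in yw males, with folds of 2.81 in yw males and 3.42, 3.85 and 4.29 in the Mettl3, Mettl14 and Hakai mutants. A second yw male peak at the 5′ end of roX1, X:3862488-3862697, had a fold of 2.24 in yw males and 4.46 in yw females and was lost in all 3 mutants. On roX2 (X:11579065-11580432) the peak at the 3′ end had folds of 7.04 in yw males and 4.82, 6.25 and 6.84 in the Mettl3, Mettl14 and Hakai mutants. It lay inside the bounds of the gene, but few of its exonic bases were in the transcript to which it was assigned, 2.61% for the yw male list and 12.4, 26.9 and 22.1% for the mutant lists. Both genes are transcribed mostly in males, yet both had peaks in females, up to 8.92-fold on roX2, at 0.152 and 0.160 FPKM.

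The bithorax complex, which sets the identity of the hind segments, held 3 named lncRNAs with peaks. On iab8 (3R:16831116-16923231), which is transcribed across the complex and from which a microRNA is made, yw males had 2 peaks in the first section. They were at 3R:16922931-16923111 (16.6-fold) and 3R:16900063-16922571 (9.47-fold), and both were lost in all 3 mutants. The mutants instead had a peak in the last section, near 3R:16831116-16831446, of 5.15-fold, 4.29-fold and 4.85-fold in the Mettl3, Mettl14 and Hakai mutants. iab8 was at 0.29 to 1.07 FPKM in the 8 male libraries. On bxd the peak at 3R:16750741-16750949 was found in all 4 male lists, at folds of 3.54 in yw males and 4.04, 4.29 and 7.14 in the Mettl3, Mettl14 and Hakai mutants, but it also lay over CG31275 on the same strand. The RNA of bxd was at 0.0125 to 0.245 FPKM in the 8 male libraries. On iab4 there was a peak of 11.9-fold in yw females and of 6.65-fold in Mettl14 males, in different places. Its RNA was listed at 0 in both yw female libraries and was at 0.0179 and 0.0232 FPKM in Mettl14 males.

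Heat shock loci varied between lists. On Hsromega, the heat shock RNA that gathers RNA-binding proteins in nuclear speckles, there were 7 peaks in yw females, 5 in yw males and 7, 5 and 3 in the Mettl3, Mettl14 and Hakai mutants, at folds of 1.34 to 4.43. In every list some of these overlapped each other, as at 3R:21298347-21298587 and 3R:21298359-21298599 in yw males, so there were fewer places than peaks. On alphagamma-element, a transcript of the heat shock locus 87C, the 5′ peak had a fold of 3.71 in yw females, 8.02 in yw males and 4.47 in Mettl3 males, Hakai males had 2 smaller ones of 4.52 and 2.66, and Mettl14 males had none. Its RNA was at 202 and 113 FPKM in Mettl14 males.

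The TS genes are a numbered group among the given names. TS25 (3R:11307669-11307886) had a peak over its whole length in all 4 male lists, with folds of 13.0 in yw males and 9.05, 13.7 and 14.1 in the Mettl3, Mettl14 and Hakai mutants. TS14 had folds of 7.22, 3.07, 16.6 and 6.32 in the same order, and TS27 of 4.03, 3.60, 4.11 and 4.62. TS9 and TS11 had peaks in the 3 mutants and not in yw males, at 19.5, 2.58 and 7.93 for TS9. Apart from TS16, TS20 and asRNA:TS15, the TS genes were listed at 0 in both female libraries, and TS16 had a peak in yw females (8.92-fold).

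Small-RNA precursors had few peaks. let7C, from which several microRNAs are cut, let-7 among them, had a single peak of 2.63-fold in Mettl14 males. Overlapping peaks in the other 4 lists, of 17.8-fold in yw males, 8.92 in yw females, 5.45 in Mettl3 and 7.85 in Hakai males, were assigned to mir-100, which is cut from the same precursor, and so were not members. flam, the master precursor of piRNAs in ovarian somatic cells, had a single peak of 3.57-fold in yw females at X:21631891-21632131, its 5′ end. acal, a lncRNA of dorsal closure in the embryo, had one of 9.91-fold in yw females. The RNA levels in yw females were low, 0.154 and 0.142 FPKM for flam and 0.193 and 0.0769 FPKM for acal.

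The strongest yw male peaks lost in all 3 mutants were on CR45308 (17.8-fold), iab8 (16.6-fold), CR44365 (15.4-fold), CR44593 (14.2-fold), CR46011 (13.0-fold), and CR43643, CR43751 and asRNA:CR44192 (11.8-fold each). The 11.8-fold peaks each had a log10 FDR of -1.95 and so missed an FDR of 0.01. In yw males CR43643 was at 0.252 and 0.161 FPKM, CR43751 at 0.117 and 0.0956, and asRNA:CR44192 at 0.891 and 0.665. CR45308 had no peak in any mutant, while its RNA was at 0.217 and 0.091 FPKM in yw males and at 0.0487 to 0.194 in the 6 mutant libraries. CR44593 was at 0.913 and 0.739 FPKM in yw males and at 0.730 to 1.64 in the mutant libraries, and the mutant lists held 1 peak on it, gained at the 3′ end in Mettl3 males (2.18-fold). On CR43643 a different peak, of 8.76-fold in Mettl3 and 8.86-fold in Mettl14 males, lay closer to the 5′ end.

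The strongest peaks found in all 3 mutants, besides CR45332 and CR45669, were on CR44780, CR44917 and CR44234. On CR44780 (2R:22957177-22957377) the fold went from 26.1 in yw males to 5.19, 7.08 and 6.0 in the Mettl3, Mettl14 and Hakai mutants. On CR44234 it went from 22.5 to 6.98, 5.54 and 6.06. These peaks were picked for their high fold in yw males, so lower values elsewhere are a description only. CR44917 kept 22.4-fold in Hakai males and had 4.87-fold in Mettl3 and 2.22-fold in Mettl14 males.

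Of the 1095 Mettl3 member peaks, 110 were gained and had a partner in both other mutants (10.05%, against 5.61% of all peaks of that list). The strongest were on CR44856 (23.4-fold, with 3.26 in Mettl14 and 4.31 in Hakai males), TS9, CR43930 (16.6-fold, with 2.88 and 8.40), CR45232 (14.6-fold, with 5.54 and 11.2) and CR44609 (12.7-fold, with 2.93 and 3.11). CR45232 had a 7.11-fold peak in yw males that overlapped too little to count as a partner of the Mettl3 one. These genes were below 1 FPKM in both Mettl3 libraries.

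The second comparison is between yw females and yw males. Of 1016 yw male member peaks, 655 had no female partner (64.5%, 61.5 to 67.4%), where 27.3% of all yw male peaks had none. Of 532 yw female member peaks, 198 had no male partner (37.2%, 33.2 to 41.4%), against 30.4% of all. Male-only peaks were commoner on lncRNA genes (70.2%) than on asRNA genes (35.3%), commoner on autosomes (67.2%) than on X (43.7%), and rose from 41.8% in the first section of the transcript to 72.4% in the last. The X held 19.2% of member peaks in females and 11.7% in males, and 12.4% of all lncRNA and asRNA genes. Of all peaks it held 19.2% in females and 17.6% in males, so the female member share equalled that of peaks in general.

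RNA levels differed in the same direction as the peaks for male-only genes and not for female-only ones. The 552 genes with a peak in yw males and not in yw females had a median of 0.0134 FPKM in females and 1.29 FPKM in males, and 242 of them were listed at 0 in females. The 114 genes with a peak in females only had medians of 0.275 FPKM in females and 0.355 FPKM in males. Where genes had a mean of at least 1 FPKM in both sexes, 23 of 144 male member peaks were male-only (16.0%, 10.9 to 22.8%, other peaks 18.6%) and 42 of 157 female ones were female-only (26.8%, 20.4 to 34.2%, other peaks 29.9%). At that level the member shares lay within counting error of the other peaks.

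**Figure D4:**
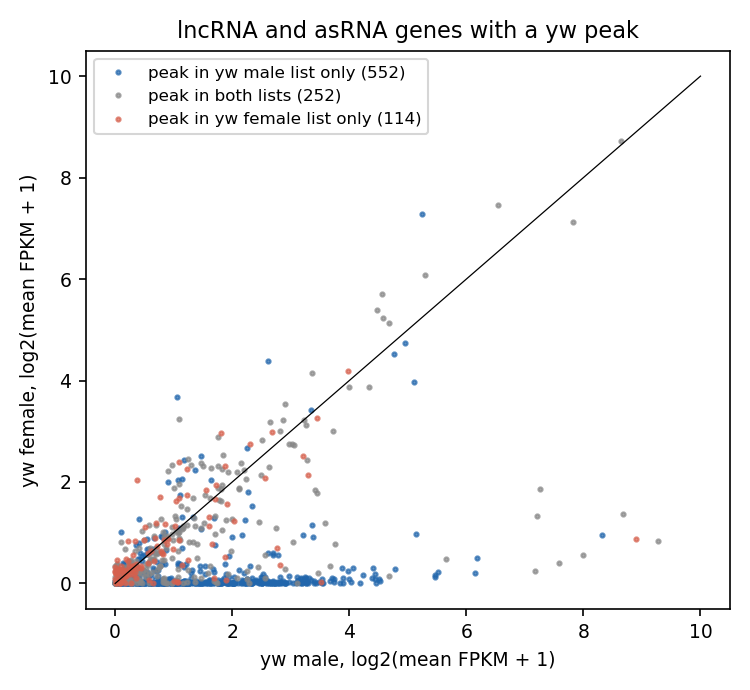
Mean RNA level of each lncRNA and asRNA gene with a yw peak, as log2(mean FPKM + 1), in yw males (x axis) and yw females (y axis), coloured by the sex whose list holds a peak. The 552 genes with a male peak only lie along the bottom, at a median of 0.0134 FPKM in females, and the 252 genes with a peak in both sexes have medians of 0.386 FPKM in females and 0.958 FPKM in males.

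The strongest male-only peaks, after CR44916 and CR46322, were on CR44780, CR44917 and CR43279 (22.9-fold, X:7495258-7495497). CR43279 was at 13.0 and 11.7 FPKM in yw males and at 0.0299 and 0 in yw females. The strongest female-only peaks were on CR45666 (30.7-fold), CR31044 (23.8-fold), asRNA:CR44062 (19.8-fold), CR45915 (16.9-fold, no block in its own transcript) and CR45539 (15.9-fold). CR45666 was listed at 0 in all 8 male libraries and at 0.239 and 0.0941 FPKM in females.

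RNA levels were then tested with limma on log2(FPKM + 1), in genes with a mean of at least 1 FPKM over the libraries of the fit. A gene was called when its adjusted p (Benjamini-Hochberg over all genes tested) was under 0.05 and its log2 change at least 1. Of the 1324 genes with a member peak, 670 passed the filter in the fit of the 8 male libraries and 471 in that of the 4 yw libraries. A gene that passes only through the group where it is high is more likely to be called. The genes were also chosen by a peak in any of the 5 lists, of which 4 are male and 3 are of mutants. A peak needs RNA in its group, so this choice can favour genes that are high in those groups. The counts below are therefore a description. They were set beside the percentage called among all 13079 or 12778 genes tested.

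In Mettl3 males 73 of the 670 genes were higher (10.9%) and 15 lower (2.24%), where 2.40% of all genes tested were higher and 1.00% lower. In Mettl14 males 52 were higher (7.76%) and 23 lower (3.43%), against 2.97% and 1.06% of all. In Hakai males 43 were higher (6.42%) and 35 lower (5.22%), against 2.18% and 1.45%. The median change over the 670 genes was 0.27, 0.13 and -0.01 in the Mettl3, Mettl14 and Hakai mutants, beside 0.03, 0.11 and 0.03 over all genes tested. lncRNA and asRNA genes with no peak in any list were also called more often than the background, with 33 higher and 11 lower of 386 in Mettl3 males. With all libraries set to the same median, which moved the all-gene median of Mettl14 males by -0.13, Mettl14 males had 43 higher and 31 lower. With a pseudocount of 0.1 in place of 1 the lower count was 35 in Mettl14 males, and Hakai males had 66 higher and 55 lower. Without Mettl3 replicate 1 the Mettl3 counts were 37 higher and 8 lower, and without Mettl3 replicate 2 they were 47 and 9.

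Marker lists of other tissues also differed between yw and mutant males. The testis markers summed to 1119 and 1152 FPKM in yw males and to 799 and 916 in Mettl3 males, with 1071 to 1147 in the other mutants. Most of this gap was dj, a sperm gene, at 385 and 337 FPKM in yw males and 79.3 and 182 in Mettl3 males, a change that was not called (limma adjusted p 0.14). The accessory gland markers (SP, Acp26Aa, Acp36DE and Acp53Ea) summed to 1726 and 1146 FPKM in yw males, 2343 and 2295 in Mettl3 males, 2455 and 2288 in Mettl14 males and 1472 and 1247 in Hakai males, and of the 4 only SP was called, higher in Mettl3 and Mettl14 males. The ovary, eggshell and yolk markers summed to 6.93 and 8.96 FPKM in yw males, 10.4 and 10.1 in Mettl3 males, 42.0 and 109 in Mettl14 males and 54.1 and 67.3 in Hakai males, and Yp3, a yolk protein gene, was called higher in the last 2. The part of these tissues in the calls on lncRNA and asRNA genes was not tested.

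Of the genes with a member peak, 22 were higher in all 3 mutants (3.28%, against 0.788% of all genes tested) and 4 lower (0.597% against 0.222%), each compared with the same yw male libraries. Those lower in all 3 were CR43451, CR44379, CR44597 and CR45670. Of 127 asRNA genes with a peak, limma called 6 higher (4.72%, 2.40% of all genes) and 1 lower (0.787%, 1.00%) in Mettl3 males, 2 (1.57%) and 0 in Mettl14 males, and 2 (1.57%) and 0 in Hakai males, the last 4 counts below the shares of all genes. At an unadjusted p in place of the adjusted one the lower counts were 2, 0 and 1. Among the protein partners of the roX RNAs (msl-1, msl-2, msl-3, mof and mle) limma called 0 of 5 in any mutant, and at an unadjusted p under 0.05, whatever the size of the change, 1, 0 and 1 passed in Mettl3, Mettl14 and Hakai males. Among 8 m6A writers and readers 0 were called, and 1, 2 and 2 passed at that unadjusted p, the mutated genes included.

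Some of the largest rises were in genes near 0 in yw males. CR43839 (2L:19470844-19471627) was at 0.0214 and 0.266 FPKM in yw males, at 17.1 and 17.0 in Mettl3, 11.5 and 9.12 in Mettl14 males and 10.3 and 9.32 in the Hakai mutant. The groups did not overlap, and the log2 changes were 3.99, 3.31 and 3.25 (SE 0.15, limma adjusted p 1.6e-04, 1.1e-04 and 1.3e-04). Its peaks were in the 3 mutant lists only, at 5.29, 4.89 and 5.79-fold. CR41352, on X, had the same pattern, with 0.0351 and 0.118 FPKM in yw males and 8.63 and 7.57 in Mettl3 males, and peaks in the mutants only (3.44, 4.78 and 3.95-fold). CR43846 was at 0 and 0.0806 FPKM in yw males and at 6.47 and 6.53 in Mettl14 males, and had peaks of 3.16, 12 and 10.6-fold in the mutants alone.

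Other genes were called higher in 1 or 2 of the mutants. CR43304 was at 0.631 and 1.12 FPKM in yw males, at 17.0 and 21.2 in Mettl3 and 21.1 and 19.3 in Mettl14 males, and at 1.65 and 1.29 in Hakai males. Its log2 change was 3.42 in Mettl3 and 3.51 in Mettl14 males, and 0.41 in Hakai males (adjusted p 0.25). CR43963, on X, was at 28.8 and 22.7 FPKM in Hakai males and at 1.49 to 2.96 in the 6 other male libraries, a log2 change of 2.98 in Hakai males. CR43166 was at 16.4 and 8.90 FPKM in Hakai males and at 2.03 and 0.207 in yw males, with an adjusted p of 0.015 that became 0.075 without Hakai replicate 1 and 0.062 in a fit of the 4 libraries of the comparison alone. The difference between mutants was not itself tested for any of these genes.

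Several falls were to near 0 in 1 or 2 of the mutants. CR43453 was at 6.07 and 7.04 FPKM in yw males, at 0 in both Mettl3 libraries, at 0 and 0.059 in Mettl14 males and at 3.93 and 5.32 in Hakai males. CR40465 was at 9.46 and 9.99 FPKM in yw males and 7.03 and 7.92 in Mettl3 males, but at 0.0309 and 0 in Mettl14 males and 0.0467 and 0 in the Hakai mutant. Its peak was found in yw males (8.29-fold) and Mettl3 males (4.96-fold) and in neither of the other lists. CR43263 was at 23.2 and 20.7 FPKM in yw males and 23.2 and 21.0 in Mettl14 males, and at 0 and 0.0575 in Hakai males, and its peaks were in every male list but that of Hakai. CR44615 was called lower in Hakai males (log2 change -3.22), and CR44490 in Mettl3 (-2.84) and Hakai males (-2.90), with -0.02 in Mettl14 males.

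CR45670 (3L:4107143-4107470) fell in all 3 mutants. It was at 6.66 and 4.12 FPKM in yw males, at 6.20 and 7.56 in yw females, and between 0.0560 and 0.408 in the 6 mutant libraries, with log2 changes of -2.29, -2.37 and -2.32 (SE 0.23). CR44379 was at 5.13 and 7.91 FPKM in yw males, 2.14 and 2.02 in Mettl3 males, and 0 to 0.0754 in the other mutants. Its call in Mettl3 males (log2 change -1.26) was lost without either Mettl3 library (adjusted p 0.081 and 0.086), without yw male replicate 2 (log2 change -0.99) and with a pseudocount of 0.1 (adjusted p 0.0505).

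**Figure D5:**
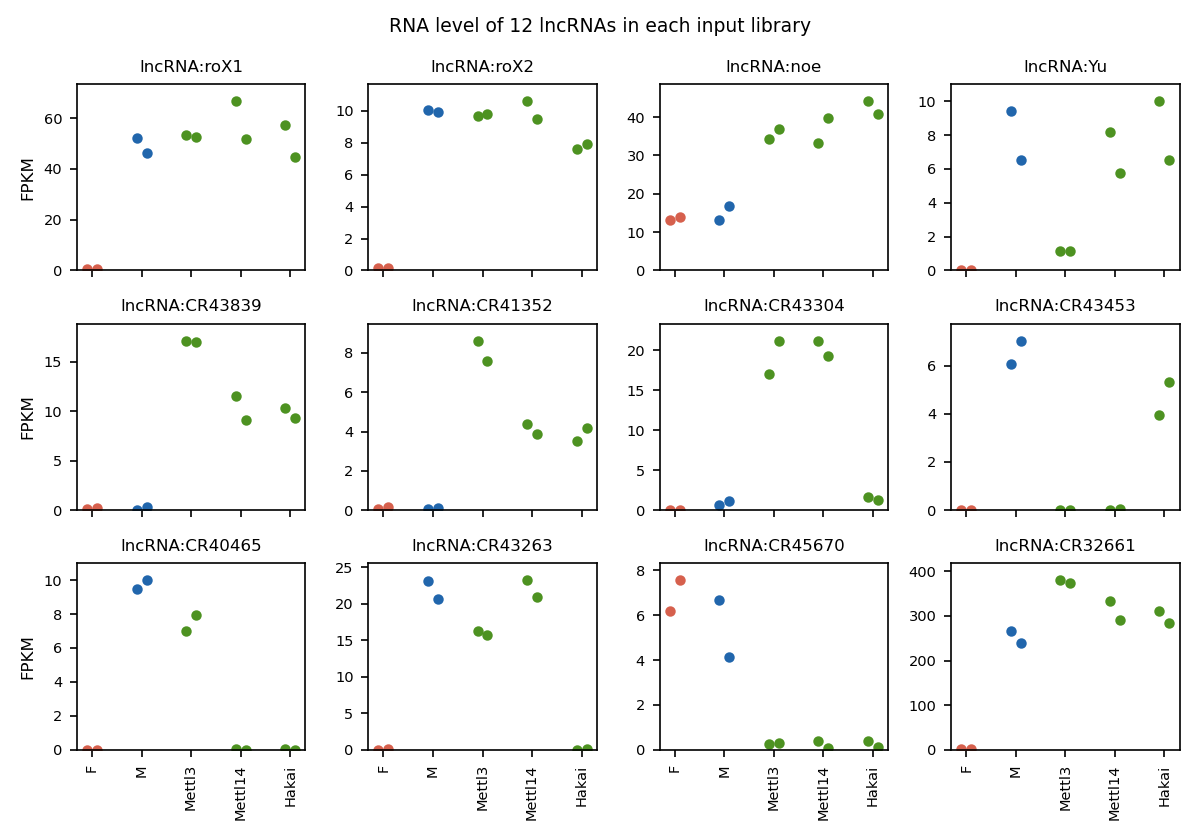
FPKM of 12 lncRNAs in each input library (points, 2 per group) for yw females (F), yw males (M) and Mettl3, Mettl14 and Hakai males. CR43839 and noe are higher in all 6 mutant libraries than in yw males, CR45670 is lower in all 6, and roX1 is near 0 in females only.

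Of the lncRNAs with a given name, noe, a transcript named for its expression in the nervous system that lies within the gene blot on the same strand, was higher in all 3 mutants. It was at 13.1 and 16.8 FPKM in yw males, 34.2 and 37.0 in Mettl3, 33.3 and 39.8 in Mettl14 males and 44.2 and 40.7 in the Hakai mutant, so that no mutant library overlapped yw males. The log2 changes were 1.21, 1.24 and 1.45 (SE 0.15, limma adjusted p 0.0058, 0.0041 and 0.0023), and without either Mettl3 library the first adjusted p was 0.054 or 0.066. Its peak had a fold of 10.5 in yw females, 4.09 in yw males and 2.89 in Mettl3, 2.31 and 2.75 in Mettl14 and 2.85 in Hakai males. Summed nervous system markers (elav, nSyb, brp and Syt1) were 131.8 and 96.5 FPKM in yw males and 88.5 to 133 in the mutants, overlapping throughout.

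Yu was called lower in Mettl3 males. It was at 9.41 and 6.54 FPKM in yw males, 1.14 and 1.16 in Mettl3, 8.20 and 5.75 in Mettl14 males and 10.02 and 6.5 in the Hakai mutant, a log2 change of -2.04 in Mettl3 males (SE 0.25, adjusted p 0.0058, and 0.056 or 0.052 without either Mettl3 library). Its 3′ peak was found in all 4 male lists at 3.64, 3.25, 3.32 and 3.53-fold, so the fold in Mettl3 males was close to that in the other lists while the RNA was lower. TS25 was at 2.48 and 1.02 FPKM in yw males and 5.12 and 6.05 in Mettl3 males (log2 change 1.31, adjusted p 0.031). The roX RNAs were not called in any mutant, with log2 changes of 0.11, 0.26 and 0.05 for roX1 and of -0.03, 0.01 and -0.33 for roX2.

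Between the sexes, 17 of the 471 genes were higher in yw females (3.61%) and 311 were lower (66.0%), where 9.14% of all genes tested were higher and 22.9% lower. Of the 1324 genes with a member peak, 1275 had one in a male list and 366 in the female list. The set thus leaned to genes with RNA in males by the way it was chosen, and these shares are a description only. The median change was -1.84, beside -0.03 over all genes tested. When all libraries were given the same median, the all-gene median moved to 0.34, and 39 genes were higher and 295 lower. lncRNA and asRNA genes with no peak were also lower in females in 145 of 287 cases (50.5%). The 4 accessory gland markers (3.82 and 2.68 FPKM summed in females) and 5 of the 6 testis markers were called lower in females too, and 1 testis marker, the germ cell gene bam, was called higher, at 2.42 and 2.23 FPKM in females and 0.514 and 0.464 in yw males. All 8 ovary, eggshell and yolk markers were called higher. The part of these tissues in the calls was not tested.

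The largest differences were on genes that were very abundant in males. CR9284 (2R:21803402-21804338) was at 0.680 and 0.874 FPKM in yw females and at 618 and 619 in yw males, a log2 change of -8.45 (SE 0.09). It was at 650 and 640 FPKM in Mettl3 males, at 80.0 and 0.508 in Mettl14 males and at 60.4 and 21.2 in Hakai males. The last 2 changes were not called (limma adjusted p 0.086 and 0.23), but that in Mettl14 males was called without Mettl14 replicate 1 (adjusted p 0.0018), and that in Hakai males in a fit of the 4 libraries of the comparison alone (adjusted p 0.019). CR32661, CR32652 and CR32658, all on the X, were at 0.443 to 1.59 FPKM in females and at 227 to 483 in yw males, with log2 changes of -7.43, -7.31 and -7.28. All 3 had peaks in the 4 male lists, of 10.7, 7.13 and 5.50-fold in yw males and of 3.86, 3.47 and 3.50-fold in Mettl3 males. In Mettl14 males these were 10.4, 5.33 and 4.63-fold, and in Hakai males 9.18, 6.43 and 4.83-fold. The female list also held peaks on CR32661 (2.64 and 2.1-fold) and CR32658 (3.57-fold). CR44389 had a log2 change of -7.96.

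The roX RNAs were called higher in males. roX1 was at 0.355 and 0.427 FPKM in yw females and 52.0 and 46.2 in yw males, a log2 change of -5.17 (SE 0.10, adjusted p 1.3e-05), and roX2 was at 0.152 and 0.160 against 10.1 and 9.96, a change of -3.25 (SE 0.08). Of their protein partners, msl-1 was higher in females, at 14.1 and 14.2 against 5.72 and 4.57 FPKM, and msl-2 lower, at 3.32 and 3.098 against 8.40 and 7.09.

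Genes higher in females were few. The largest changes were on CR44833 (2.62), asRNA:CR44035 (2.16), CR44816 (1.80), CR43836 (1.66, with a 3.03-fold peak in the female list only) and asRNA:CR43481 (1.41). The CR43836 peak (X:9042687-9049495) was labelled 5′ UTR and ran past the end of the gene at 9048991. Like all member peaks with a UTR label it lay over a gene outside the class, so it may not belong to CR43836. Hsromega was at 51.1 and 51.7 FPKM in females and 16.7 and 28.3 in yw males, a log2 change of 1.20 (adjusted p 0.019) that was 0.84, and so below the call, without yw male replicate 1.

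Peaks and RNA were last set side by side. Of gained member peaks, 27 of 353 in Mettl3 males (7.65%), 30 of 395 in Mettl14 males (7.59%) and 22 of 345 in Hakai males (6.38%) were on a gene whose RNA was called higher, against 1.21, 2.05 and 1.94% of other gained peaks. Mutant member peaks with a yw male partner were on such a gene in 5.39, 2.84 and 2.54% of cases. Of lost member peaks, 4 of 299 (1.34%), 11 of 323 (3.41%) and 26 of 311 (8.36%) were on a gene called lower, against 0.774, 0.661 and 0.765% of other lost peaks. Member peaks found in the mutants were on a gene called lower in 1.26, 1.59 and 1.70% of cases. In Mettl3 males the lost and found shares were thus close. Most lost member peaks, 66.6, 61.9 and 62.7%, were on genes too low in RNA to be tested. Read from the RNA side, 28 of the 73 genes called higher in Mettl3 males had a peak in the mutant list and none in the yw male list, and 1 the reverse, while of all 670 tested members 117 had a peak in the mutant list only and 70 in the yw male list only. Of the 15 called lower in Mettl3 males 4 had a peak in the yw male list only and 2 in the mutant list only. In Mettl14 males the 52 genes called higher held 28 with a peak in the mutant list only and 4 with one in the yw male list only (109 and 95 of all 670), and the 23 called lower held 1 and 9. The 43 genes called higher in Hakai males held 22 and 1 (107 and 98 of all 670). In Hakai males 17 of the 35 genes called lower had a peak in the yw male list only, and 3 in the Hakai list only. Between the sexes, 209 of the 311 genes lower in females had a peak in the male list only, 32 in both lists and 7 in the female list only, beside 234, 115 and 33 of all 471 tested members. Of the 17 genes higher in females, 5 had a peak in the male list only, 7 in both lists and 3 in the female list only.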

How the data were processed

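The authors trimmed reads with fastp, aligned them with HISAT2, called peaks with exomePeak on the IP and input libraries of each group together, annotated them with ChIPseeker and estimated RNA levels of the strand-specific input libraries with StringTie. The deposited peak lists give a fold enrichment (a ratio of IP to input), a p-value and log10 of the p-value and FDR for each peak, and the deposited expression table gives FPKM. The peaks, gene lists and tests were chosen with earlier results of these data known. The genes named were all with a given name, those of the highest fold in yw males, in yw females and among peaks lost, found, gained or of 1 sex, the largest called RNA changes, and the 3 mutated genes.

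Peaks were matched by outer coordinates (shared bases over 0.5 of the shorter peak). RNA was tested with limma 3.58.1 (R 4.3.3, trend) on log2(FPKM + 1), since count tests do not apply to FPKM, with Benjamini-Hochberg adjustment, as separate fits of the 8 male and 4 yw input libraries. There were 2 libraries per group, and p-values measure only the spread between these samples, which nothing in the labels ties to separate cultures. The mean FPKM had to be at least 1. Tables were handled with Python 3.11.15, numpy 2.4.6, pandas 2.3.3 and scipy 1.17.1, and plots made with matplotlib 3.10.9. On simulated data for Mettl3 against yw males (13079 genes), 77 of 100 genes with a planted log2 change of 1.5 and 98 of 100 with 2.5 were called, and 4000 of 4000 built peak overlaps were read as built. Marker genes given under a name that the table did not hold were 1 of 7 for testis, 1 of 5 for accessory gland and 1 of 9 for the m6A genes. Alternatives were another pseudocount, FPKM filters, scaling, thresholds on fold, FDR and overlap, leaving out libraries, and 3 choices added after the data were seen. No genome sequence was used here, so no motif was searched and no sequence is printed.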

Additional observations from a re-analysis of the deposited data

How the results depend on the processing

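Of 214 alternative values over 26 summary results, 143 stayed within the limits set for no change, and of 1176 for named genes 0 reversed, 11 lost a call and 17 gained one. The cause of the changes below was not tested, except that stricter thresholds leave fewer peaks or genes. A fold of at least 5 in both lists left 209, 394, 289, 349 and 417 member peaks (yw female, yw male, Mettl3, Mettl14, Hakai) with medians of 8.92, 7.11, 7.06, 7.75 and 7.93, lost shares of 66.8, 60.9 and 54.6%, gained shares of 55.0, 55.3 and 55.4%, 71.3% male-only and 54.6% female-only. An FDR of at most 0.01 in both gave medians of 4.22 in yw and 3.53 in Mettl3 males, lost shares of 24.6, 26.3 and 24.8% and 30.1% female-only. Peaks over no other gene (311 in yw females) gave 33.7, 35.5 and 35.5% lost, 35.8, 42.3 and 39.4% gained, 77.9% male-only and 48.2% female-only. An overlap of 50% of both peaks gave 43.7, 46.7 and 44.5% lost, 46.2, 50 and 45.9% gained, 74.7% male-only and 53.6% female-only, and any overlap gave 29.4% gained in Mettl3 males and 33.1% female-only. Of the choices added after seeing the data, 1 FPKM in both groups gave 16.1, 19.4 and 16.1% lost, 18.5, 21.7 and 19.0% gained, 16.0% male-only and 26.8% female-only, a partner on the same gene gave 33.9, 35.8 and 35.4% lost, and overlapping peaks counted once gave 68.1% male-only. A mean of at least 5 FPKM gave 25 higher and 7 lower genes for Mettl3, 12 and 4 for Mettl14, 10 and 11 for Hakai and 3 and 59 for females. A pseudocount of 0.1 gave 35 lower in Mettl14 and 66 higher and 55 lower in Hakai males. Equal medians gave 39 higher in yw females. Leaving out 1 library gave 37 to 82 higher and 8 to 15 lower for Mettl3, 43 to 51 and 18 to 28 for Mettl14, 30 to 38 and 27 to 40 for Hakai, and 16 to 20 and 215 to 357 for females. The replicate numbers are not stated to pair samples (deviations of same-numbered libraries correlated at -0.04 to 0.66). With a replicate block the counts were 83 and 19, 54 and 25, 44 and 39, and 19 and 313, and CR9284 was called lower in Mettl14 males (-5.81, limma adjusted p 0.040). The planned search for the m6A motif in peaks was not run. Limits are 1 peak list per group, 2 libraries per group, unknown depth behind the FPKM, low RNA levels and overlapping genes. A further limit is that each mutation cannot be told apart from the strain background of its flies.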
